A study of Mus musculus with 16 samples.

Results

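The variable (V) and joining (J) gene segments of the T cell receptor alpha and beta chains were examined in RNA-seq libraries of mouse CD8+ T cells before and during activation in culture. The segments were chosen by their summed count: a gene symbol of the deposited count matrix belonged to the set if it named a Trav, Traj, Trbv or Trbj segment and had at least 20 counts summed over the 12 libraries. This rule gave 134 segments of 34573 symbols, out of 157 V and J symbols in the matrix: 53 Trav, 49 Traj, 20 Trbv and 12 Trbj. The other 23 symbols lay below the threshold. The nearest outside was Trav6n-5 with 19 counts, and the nearest inside were Traj50 and Traj52 with 22 counts each. The summed count that chose the segments does not use the groups, but it favours segments that are high in any of them.

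All cells were from C57BL/6 mice; age, sex and the number of animals are not given in the labels. Naïve CD8+ T cells were taken from spleen with an isolation kit. The Tn libraries hold such cells on day 0, sorted as CD8+, CD44- and CD62L+. The other states come from cultures stimulated with antibodies against CD3e and CD28 at 10 µg/ml each, with IL-2 at 300 U/ml added later, overnight. Teff1 was sorted on day 2 as CD8+, PD-1+ and TIM-3-, Teff2 on day 5 by the same surface markers, and Tex on day 5 as CD8+, PD-1+ and TIM-3+. Each state has 3 libraries. No label says whether libraries with the same replicate number share animals or cultures, so the p-values measure the spread between these libraries, which may in part be technical.

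A T cell makes each receptor chain by joining a V and a J segment (with a D segment in the beta chain) on the chromosome, and the joined exon is spliced to a constant region, Trac for alpha and Trbc1 or Trbc2 for beta. The V segment encodes most of the part that touches the peptide and the MHC molecule, and the J segment completes the hypervariable CDR3 loop. A polyclonal population therefore holds many V and J segments, each used by a fraction of the cells, and a segment can also be transcribed without being part of a joined gene. In bulk RNA, fewer cells that use a segment and less RNA per cell cannot be told apart.

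In mm10 (GRCm38.p6) the Trav segments spanned chr14:52427967-53876752 from Trav1 to Trav21-dv12, and the Traj segments spanned chr14:54165316-54218842 from Traj52 to Traj1, just before Trac at chr14:54220521-54224198. The Trbv segments spanned chr6:40891296-41558371 from Trbv1 to Trbv31. Within the end of that interval lie the Trbj segments at chr6:41533864-41543856, with Trbc1 at chr6:41538219-41539665 between the Trbj1 and Trbj2 clusters and Trbc2 at chr6:41546730-41548181 after Trbj2-7. All 134 symbols matched the RefSeq annotation. It marks 8 of them as pseudogenes: Traj1, Traj8, Traj14, Traj36, Traj51, Trav4d-2, Trbj2-6 and Trbv29. Being so marked did not mean a low count: Traj1 had the highest mean share of the Traj counts, and Trbv29 the second highest of the Trbv counts.

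The library totals were 14668884 to 21162206 counts, and all libraries carried the markers of CD8 T cells (Cd8a, Cd8b1, Cd3d, Cd3e and Cd3g), which summed to 2455 to 3981 CPM (counts scaled to a common library total) in Tn and 1804 to 2151 CPM in the activated states. The Tn libraries also held RNA of other cells. The 7 B cell markers summed to 1291, 624 and 2004 CPM in Tn replicates 1, 2 and 3, and to 89.3 to 306 CPM in the 9 activated libraries, of which Ighm made up 82.9 to 296 CPM. The gamma delta T cell list (8 of 9 genes in the matrix) summed to 50.1, 13.8 and 88.1 CPM in Tn and 1.43 to 11.3 CPM in the activated states, and the macrophage list (5 of 6 in the matrix) to 190, 48.9 and 111 CPM in Tn and at most 1.15 CPM elsewhere. The NK cell list summed to 57.1, 6.40 and 109 CPM in Tn and at most 2.58 CPM elsewhere, and the CD4 T cell list to 156, 18.2 and 90.2 CPM in Tn and 194 to 628 CPM in the activated states. Of that list, Ctla4, which activated T cells also express, made up 67.5 to 535 CPM in the activated states, and Cd4 itself was 0.108 to 5.38 CPM there, against 27.5, 1.77 and 36.9 CPM in Tn. The lowest of the 3 Tn libraries on each of these lists was replicate 2, so each comparison with Tn is also given with replicate 2 as the only Tn library.

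By length of the annotated segment, the beta segments were at higher levels than the alpha segments of the same kind. The median over segments of the mean level in 12 libraries was 22.2 CPM per kb for Trbv and 2.79 for Trav, and 54.0 for Trbj and 21.4 for Traj. The highest were Trbv16, Trbv3 and Trbv29 at 44.8, 40.6 and 40.3 CPM per kb, Trav8-2 and Trav16 at 11.02 and 8.22, Traj1 and Traj7 at 146 and 80.1, and Trbj1-5 and Trbj1-3 at 249.5 and 178. The J segments are short: a median of 60 bases for Traj and 49.5 for Trbj, against 502 for Trav and 449 for Trbv. The same count therefore gives a higher level per kb than in a V segment. The median count per segment, summed over the 12 libraries, was 270 for Traj, 559.5 for Trbj, 316 for Trav and 2109 for Trbv.

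The 4 kinds of segment differed between the states by unlike amounts. The Traj, Trbj and Trbv sums were lower in every activated library than in any Tn library, the Traj sum by the widest ratio, and the Trav sum differed least. Traj segments summed to 136 ± 41.5 CPM (Tn), 52.2 ± 6.68 CPM (Teff1), 53.9 ± 11.6 CPM (Teff2) and 29.7 ± 12.6 CPM (Tex) (SD, n = 3 each). For Trbj the sums were 93.0 ± 15.2 CPM (Tn), 37.3 ± 6.09 CPM (Teff1), 46.5 ± 16.2 CPM (Teff2) and 40.9 ± 14.3 CPM (Tex). For Trbv they were 282 ± 49.2 CPM (Tn), 174 ± 5.64 CPM (Teff1), 194 ± 20.2 CPM (Teff2) and 184 ± 15.9 CPM (Tex). For Trav they were 98.2 ± 12.0 CPM (Tn), 83.1 ± 9.89 CPM (Teff1), 89.1 ± 5.93 CPM (Teff2) and 76.0 ± 2.25 CPM (Tex). These sums got no test, because the segments were chosen with results known.

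**Figure D1:**
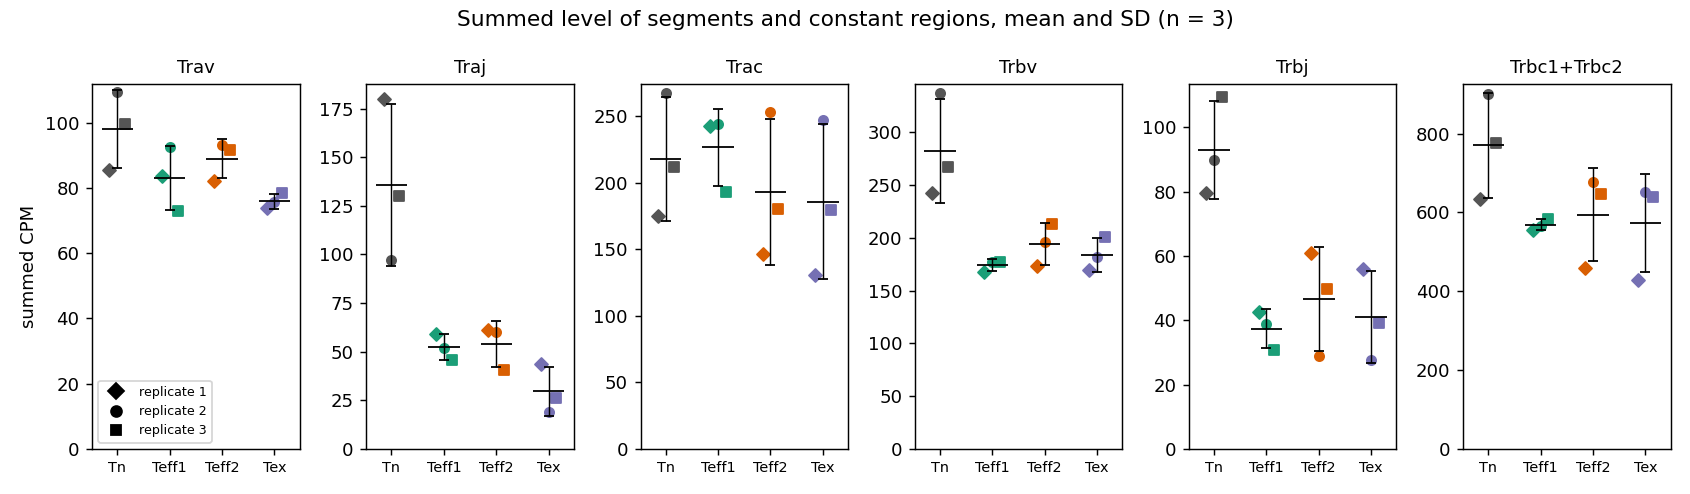
Summed CPM of the Trav, Traj, Trbv and Trbj segments, of Trac and of Trbc1 plus Trbc2 in each library; symbols mark the replicate number, lines the mean and bars the SD of 3 libraries per state. The Traj, Trbv and Trbj sums of every Tn library lie above those of every activated library, while Trac overlaps between all states.

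Trac did not follow the Traj segments, and the beta constant regions differed less than the Trbj segments. Trac, which every finished alpha chain carries, was 227 ± 29.0 CPM in Teff1 and 218 ± 46.5 CPM in Tn (log2 fold change 0.05, SE 0.26, adjusted p = 0.877 by the quasi-likelihood test of edgeR, adjusted by Benjamini-Hochberg over 14332 genes). Per 100 CPM of Trac, the Traj sum was 24.4, 21.3 and 23.7 in Teff1 replicates 1, 2 and 3, against 103, 36.4 and 61.4 in the Tn replicates. The same quantity was 41.8, 23.7 and 22.5 in Teff2 and 33.3, 7.72 and 14.7 in Tex, so Teff2 replicate 1 lies above Tn replicate 2. Trbc1 plus Trbc2 averaged 568 ± 14.1 CPM in Teff1 and 770 ± 133 CPM in Tn, with a log2 ratio of -0.44, and the groups do not overlap. Neither gene was called in any comparison with Tn: Trbc1 had a log2 fold change of -0.34 (SE 0.17, adjusted p = 0.109) and Trbc2 of -0.50 (SE 0.24, adjusted p = 0.105) in Teff1 over Tn. Relative to these constant regions, the log2 ratio of the Trbv sum in Teff1 over Tn was -0.26, against -0.70 without that scaling. That of the Trbj sum was -0.89 against -1.32. Neither scaled sum overlaps between Teff1 and Tn. In Teff2 over Tn the scaled log2 ratios were -0.14 for Trbv and -0.54 for Trbj. In Tex over Tn they were -0.16 for Trbv and -0.65 for Trbj. Both scaled sums overlap with Tn in Teff2 and in Tex, so the lower level relative to the constant regions is without overlap in Teff1 alone.

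In the test by gene, 120 of the 134 segments passed the filter on low counts (47 Trav, 43 Traj, 19 Trbv and 11 Trbj). In Teff1 over Tn, 44 of the 120 fell and 0 rose at an adjusted p under 0.05, while 24.5% of all 14332 genes fell and 24.5% rose. By kind, 26 of 43 Traj, 9 of 11 Trbj, 9 of 19 Trbv and 0 of 47 Trav segments fell, so the J segments lie above the share of all genes and the Trav segments below it. Of the 43 Traj segments, 9 passed the filter only through their Tn counts, 5 of which fell, so falls among them are built in; of the 34 that passed otherwise, 21 fell in Teff1, 19 in Teff2 and 33 in Tex over Tn. The median log2 fold change was -1.38 over the Traj, -1.32 over the Trbj, -0.71 over the Trbv and -0.22 over the Trav segments, beside -0.06 over all genes. In Teff2 over Tn, which uses the same Tn libraries, 33 fell and 0 rose (20 Traj, 5 Trbj, 8 Trbv), beside 23.3% of all genes lower and 25.6% higher. In Tex over Tn, again against the same libraries, 54 fell and 0 rose (39 Traj, 6 Trbj, 9 Trbv), beside 25.6% of all genes lower and 27.3% higher, and the median log2 fold change of the Traj segments was -2.26. In each of the 3 comparisons 1 Trav segment was lower at an unadjusted p under 0.05. The absence of Trav calls depended on the fit. DESeq2 called 0, and limma on the authors' log2 values called 1, 1 and 3 in Teff1, Teff2 and Tex over Tn. With the replicate number as a block, 1, 2 and 6 were called. The share of all genes at the unadjusted threshold, and the share called in these other fits, are not given here.

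With Tn replicate 2 as the only Tn library, the lone Tn library was assumed to vary like the other groups. Most of the Traj and Trbj calls were then lost in each comparison with Tn, and most of the Trbv calls were kept. The median log2 fold change over the tested segments was -0.71, -0.68 and -1.11 in Teff1, Teff2 and Tex over Tn. Over all genes it was -0.03, 0.04 and 0.02, and over the Traj segments -0.79, -0.81 and -1.77. With single libraries left out, the count of called segments in Teff1 over Tn was 25 without Tn replicate 1 and 25 without Tn replicate 3. It was 25 without Teff1 replicate 2 and 23 without Teff1 replicate 3. That for Teff2 over Tn was 20 without Tn replicate 1 and 20 without Teff2 replicate 2, each with 19 lower and 1 higher, and 13 without Teff2 replicate 3. The share of all genes called in these fits is not given here, so lower power and smaller differences cannot be told apart. The markers of other cells differ between the Tn libraries as given above, and their part in these falls was not tested.

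Among the beta V segments, those that fell were neighbours. All 9 of the called Trbv segments in Teff1 over Tn lay between Trbv4 and Trbv17 (chr6:41059443-41163556), and those 9 are all the members in that interval. None of the 10 tested segments on either side of it was called by edgeR, and 1 of them was lower at an unadjusted p under 0.05. The share of all genes at that unadjusted threshold is not given here. Here the interval was drawn after the values were seen, so the split is a description. The 9 segments summed to 80.0, 83.4 and 82.9 CPM in Teff1, against 145, 210 and 164 CPM in Tn. The other 11 Trbv segments summed to 87.3, 93.6 and 94.4 CPM in Teff1, against 97.5, 128 and 103 CPM in Tn. Both sums were below every Tn library, the first by a wider margin. In Teff2 the 9 segments summed to 86.6, 92.9 and 103 CPM, and in Tex to 86.5, 91.1 and 99.0 CPM; neither overlaps with Tn. The other 11 summed to 86.5, 103 and 110 CPM in Teff2 and to 82.5, 90.8 and 102 CPM in Tex, and both overlap with Tn.

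Trbv16 had the highest level per length of the Trbv segments (44.8 CPM per kb of the annotated segment, mean of 12 libraries). It was at 13.2, 12.6 and 12.7 CPM in Teff1, against 28.9, 41.4 and 29.9 CPM in Tn (log2 fold change -1.38, SE 0.24, adjusted p = 8.23e-04 by edgeR). Every Teff1 value is below every Tn value. It also fell in Teff2 (12.6, 13.5 and 21.8 CPM; log2 fold change -1.07, SE 0.24, adjusted p = 0.00356) and in Tex (14.4, 15.3 and 20.1 CPM; -1.01, SE 0.24, adjusted p = 0.00432). Its neighbour Trbv17 was at 6.32, 4.04 and 4.79 CPM in Teff1, against 10.98, 17.4 and 11.3 CPM in Tn, a log2 fold change of -1.39 (SE 0.29, adjusted p = 0.00201). Trbv14 was at 11.8, 14.2 and 13.6 CPM in Teff1, against 21.7, 32.6 and 24.7 CPM in Tn, a log2 fold change of -0.9995 (SE 0.22, adjusted p = 0.00344). Trbv13-2, a segment whose product is known as Vβ8.2, was at 11.3, 10.2 and 10.3 CPM in Teff1, against 19.3, 28.4 and 21.9 CPM in Tn, a log2 fold change of -1.13 (SE 0.24, adjusted p = 0.00234). The 5 remaining called segments of the interval, Trbv4, Trbv5, Trbv13-1, Trbv13-3 and Trbv15, had log2 fold changes of -1.16 to -0.71.

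Trbv1, at the far end of the locus, was at 18.3, 20.0 and 19.3 CPM in Teff1, against 17.3, 25.0 and 18.1 CPM in Tn, with a log2 fold change of -0.07 (SE 0.23, adjusted p = 0.823). The groups overlap. Trbv29 was at 16.3, 17.9 and 17.999 CPM in Teff1, against 19.2, 23.1 and 17.2 CPM in Tn, and its log2 fold change of -0.19 (SE 0.19) also missed the threshold (adjusted p = 0.415). Trbv3, which lies next to the interval, was at 14.2, 16.1 and 17.5 CPM in Teff1, against 17.8, 20.9 and 21.7 CPM in Tn (log2 fold change -0.34, SE 0.22, adjusted p = 0.218); its groups do not overlap. Trbv19, on the other side of it, was at 10.9, 11.02 and 14.2 CPM in Teff1, against 10.1, 15.5 and 9.66 CPM in Tn (log2 fold change 0.03, SE 0.32, adjusted p = 0.941). The order of the shares differed between states: Trbv16 held 8.99% of the Trbv counts in Tex and 11.8% in Tn, and Trbv1 held 10.7% in Tex and 7.10% in Tn (means of 3 libraries). Shares add to a whole, so a fall of some segments raises the share of others. Among Trbv segments with a mean share of at least 1%, the widest ratio of the highest to the lowest share within a state was 2.01, for Trbv13-2 in Tex (16.1, 11.7 and 9.52 CPM).

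**Figure D2:**
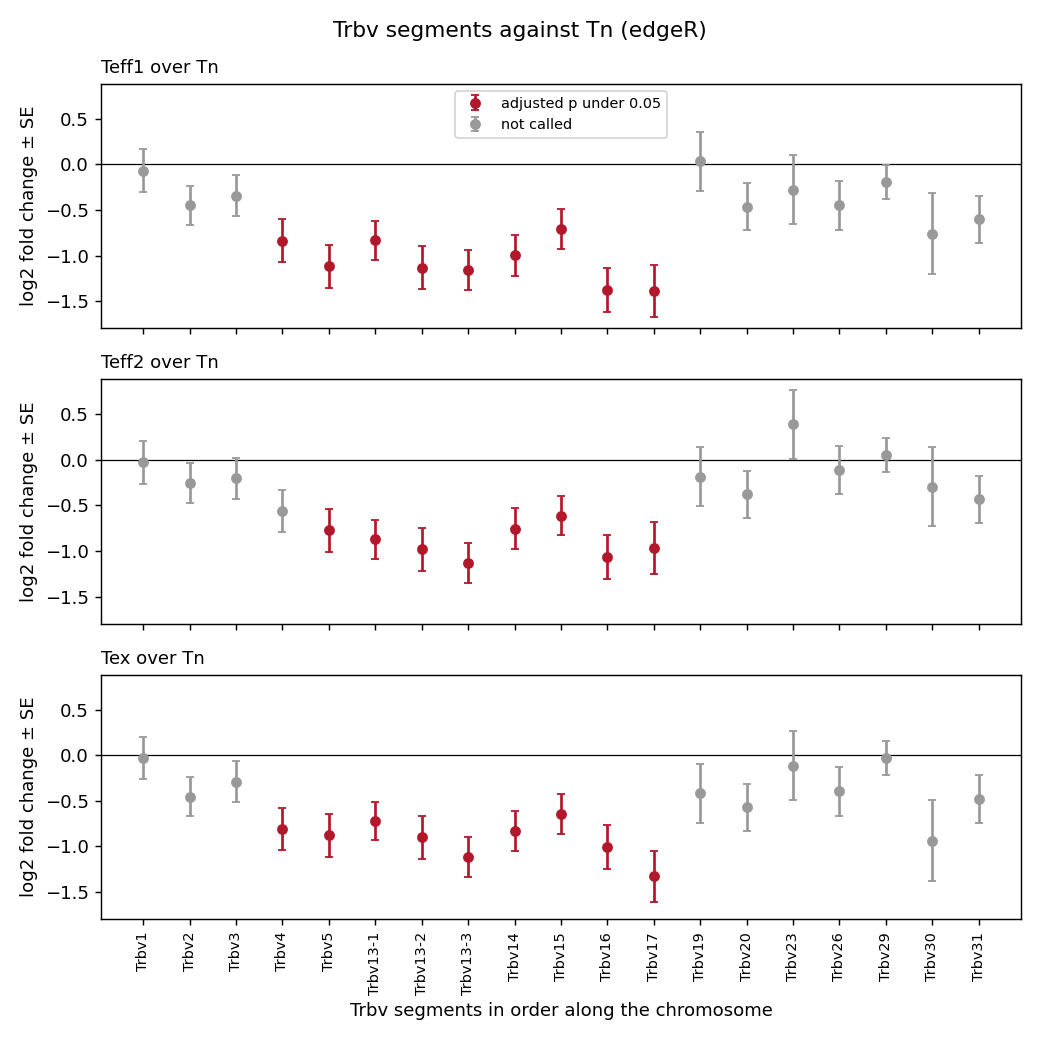
Log2 fold changes (edgeR, ± SE) of the 19 tested Trbv segments in Teff1, Teff2 and Tex over the same Tn libraries, in order along the chromosome; red points passed an adjusted p of 0.05. The 9 segments from Trbv4 to Trbv17 lie at -1.39 to -0.71 in Teff1, and the other 10 at -0.76 to 0.03.

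The alpha J segments showed a slope along the locus. In every state the level per length was higher the nearer the segments lay to Trac. Divided into 5 groups in locus order, the Traj segments of Tn were at 9.84 ± 2.82 CPM per kb in the group farthest from Trac (Traj52 to Traj41, 10 segments), then at 21.7 ± 6.86, 45.9 ± 17.1 and 64.05 ± 23.1, and at 104 ± 25.4 CPM per kb in the nearest (Traj9 to Traj1, 9 segments; SD over 3 libraries). The farthest and the nearest group were at 3.74 ± 1.17 and 41.5 ± 5.41 CPM per kb in Teff1, 3.63 ± 1.75 and 41.6 ± 11.6 in Teff2, and 2.31 ± 1.82 and 25.9 ± 6.995 in Tex. The ratio of Teff1 to Tn varied little along the slope: the ratio of the means, Teff1 over Tn, was 0.380, 0.391, 0.362, 0.383 and 0.398 from the farthest group to the nearest. The segments are 29 to 66 bases long, and their summed counts over the 12 libraries ranged from 22 to 975, with a median of 270.

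**Figure D3:**
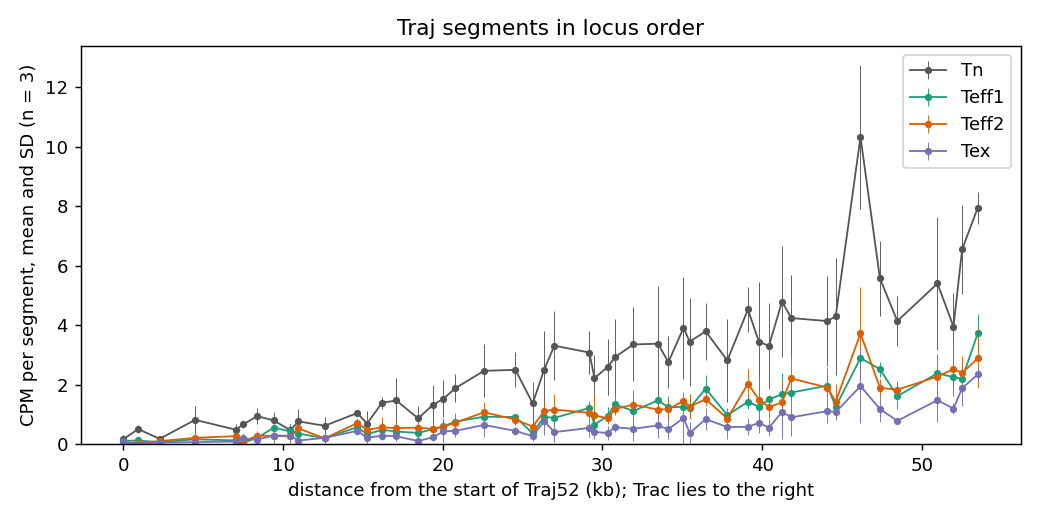
Mean CPM and SD (n = 3) of each of the 49 Traj segments against its distance from the start of Traj52, with Trac to the right, in Tn, Teff1, Teff2 and Tex. The level climbs toward Trac in all 4 states, and Tn is the highest line over most of the locus.

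Traj7, with the second highest mean share of the Traj counts, was at 2.81, 3.28 and 2.61 CPM in Teff1, against 12.97, 8.23 and 9.76 CPM in Tn, a log2 fold change of -1.83 (SE 0.48, adjusted p = 0.0084 by edgeR). The groups do not overlap. Traj1, the last segment before Trac and annotated as a pseudogene, was at 3.33, 4.47 and 3.39 CPM in Teff1, against 8.47, 7.96 and 7.40 CPM in Tn (log2 fold change -1.09, SE 0.30, adjusted p = 0.0107). It also fell in Tex over Tn, to 2.58, 2.32 and 2.13 CPM (log2 fold change -1.76, SE 0.31, adjusted p = 6.48e-04). Traj2, Traj4 and Traj6, its neighbours, fell in Teff1, Teff2 and Tex over Tn, with log2 fold changes of -1.14 to -1.57 in Teff1. Traj3 had -0.81 in Teff1 (SE 0.37, adjusted p = 0.088) and fell in Tex over Tn (-1.72, SE 0.38, adjusted p = 0.00284).

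The largest falls in Teff1 over Tn among segments with at least 20 counts in each Tn library were those of Traj27, Traj7, Traj8 and Traj25. Traj27 was at 0.998, 0.808 and 0.848 CPM in Teff1, against 4.56, 2.31 and 3.06 CPM in Tn (log2 fold change -1.90, SE 0.61, adjusted p = 0.0224). Traj8 had a log2 fold change of -1.76 (SE 0.46, adjusted p = 0.00831) and Traj25 of -1.75 (SE 0.64, adjusted p = 0.0393). In Teff2 over Tn the leading falls were those of Traj12, Traj16, Traj8 and Traj30, with log2 fold changes of -1.58 to -1.76. In Tex over Tn they were those of Traj18, Traj27, Traj15 and Traj24. Traj15 was at 0.549, 0.324 and 0.884 CPM in Tex, against 5.36, 3.88 and 4.35 CPM in Tn, a log2 fold change of -2.93 (SE 0.42, adjusted p = 1.79e-04). Traj27 had -3.00 (SE 0.65, adjusted p = 0.00245) and Traj24 had -2.76 (SE 0.52, adjusted p = 0.00107).

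Some segments mark T cells with invariant alpha chains. Traj18, which iNKT cells join to Trav11, was at 0.769, 0.0540 and 0.312 CPM in Tex, against 5.09, 2.25 and 3.00 CPM in Tn (log2 fold change -3.17, SE 0.67, adjusted p = 0.00207), and Tex replicate 2 had 1 count. In Teff1 it was at 1.52, 1.24 and 0.909 CPM, which missed the threshold (log2 fold change -1.49, SE 0.61, adjusted p = 0.0603). Trav11 was not analysed here, and Trav11d had 11 counts over all libraries. Traj33, which MAIT cells join to Trav1, was at 0.878, 0.216 and 0.208 CPM in Tex, against 2.18, 0.953 and 1.45 CPM in Tn (log2 fold change -1.81, SE 0.63, adjusted p = 0.03). Trav1 was at 1.59, 0.756 and 1.35 CPM in Tex, against 3.18, 1.36 and 1.34 CPM in Tn (log2 fold change -0.66, SE 0.65, adjusted p = 0.41), and its groups overlap. The list of iNKT and MAIT markers, which holds these 3 segments, summed to 9.06, 1.78 and 2.96 CPM in Tex, against 30.1, 6.74 and 37.0 CPM in Tn. Its part in these differences was not tested. The median over all tested Traj segments in Tex over Tn was -2.26, as given above.

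Among the beta J segments the falls were of like size. In Teff1 over Tn the log2 fold changes of the 11 tested Trbj segments lay between -1.55 and -1.05. Trbj1-5, which held 22.4% of the Trbj counts on average, was at 10.2, 7.08 and 6.91 CPM in Teff1, against 16.9, 20.7 and 27.8 CPM in Tn (log2 fold change -1.44, SE 0.40, adjusted p = 0.0104). Trbj1-3 was at 6.23, 5.89 and 5.76 CPM in Teff1, against 14.69, 13.7 and 19.2 CPM in Tn (log2 fold change -1.41, SE 0.39, adjusted p = 0.0104). Trbj2-7, with the highest level per length in the second cluster, was at 7.70, 5.99 and 3.88 CPM in Teff1, against 10.1, 12.9 and 14.97 CPM in Tn (log2 fold change -1.11, SE 0.42, adjusted p = 0.0431). None of these 3 segments overlaps between the groups. Trbj1-4, Trbj1-6 and Trbj2-2 also fell, with log2 fold changes of -1.05 to -1.32, while Trbj1-2 (-1.06, adjusted p = 0.0589) and Trbj2-6 (-1.17, adjusted p = 0.0579) just missed the threshold.

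The Trbj level also varied between libraries of a state. In Teff2 the Trbj sum was 60.8, 28.9 and 49.7 CPM in replicates 1, 2 and 3, and in Tex, sorted on the same day, it was 56.0, 27.5 and 39.1 CPM, with the same order of replicates. Among Trbj segments with a mean share of at least 1%, Trbj2-6 had the widest ratio of the highest to the lowest share within a state, 4.76 in Teff2, where it was at 1.73, 1.93 and 0.698 CPM. Trbj2-3 was at 0.713, 2.33 and 1.09 CPM in the Teff1 libraries, a ratio of the highest to the lowest share of 3.56. Over the whole genome the deviations of equal-numbered Tex and Teff2 libraries from their state means also correlated, with r of 0.85, 0.78 and 0.75 over genes.

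Between the activated states no segment passed the test. In Teff2 over Teff1, 0 of 120 segments were called, beside 0.67% of all genes. At an unadjusted p under 0.05 only Trav8-2 was higher, at 8.67, 4.64 and 8.54 CPM in Teff2, against 4.14, 5.08 and 2.73 CPM in Teff1, and its adjusted p was 0.356; 7.58% of all genes were higher and 4.33% lower at that threshold. DESeq2 and limma also called 0. In Tex over Teff2, sorted from day 5 cultures by TIM-3, 0 were called, beside 0.00698% of all genes. Here 12 segments, all of them Traj, were lower at an unadjusted p under 0.05, beside 0.998% of all genes, and 0 were higher, beside 0.754%. DESeq2 and limma called 0. The Traj sum was 43.6, 19.1 and 26.4 CPM in Tex, against 61.2, 60.0 and 40.5 CPM in Teff2 (replicates 1, 2 and 3), lower in 3 of 3 equal-numbered pairs; Tex replicate 1 exceeds Teff2 replicate 3. By segment, 28 of 43 Traj segments were lower in all 3 pairs and 0 were higher in all 3, beside 18.5% and 20.8% of all genes. A fit within these pairs called 0 of 106 segments, beside 1.69% of all genes, and put 22 lower and 0 higher at an unadjusted p under 0.05, beside 7.74% and 8.85% of all genes. Tex replicate 2 had the fewest Traj counts, 353, and in it Traj19 and Traj27 had 1 count each, 0.0540 CPM, so the ratio of the highest to the lowest share among the Tex libraries was 14.7 and 9.73 for them. These were the widest ratios among Traj segments with a mean share of at least 1% and a count in every library of the state.

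No alpha V segment was called between states in the fit above, but their usage differed widely between libraries of a state. In each of the 4 states, replicate 1 used the Trav segments in other proportions than replicates 2 and 3. The proportions followed position. Cut into 3 spans of equal length, the Trav region holds 16 segments in its upstream span (Trav1 to Trav14d-1, chr14:52427967-52856166), 8 in the middle span (Trav8d-2 to Trav14n-3, chr14:53042428-53370575) and 29 in the downstream span (Trav4-2 to Trav21-dv12, chr14:53418388-53876752). In Tn, the upstream span held 48.0% of the Trav counts in replicate 1 (95% Wilson interval 45.2 to 50.7), against 16.3% in replicate 2 (14.6 to 18.2) and 15.8% in replicate 3 (14.3 to 17.6). In Teff1 the same share was 45.1% in replicate 1 (42.8 to 47.4), against 14.65% (13.2 to 16.3) and 15.1% (13.2 to 17.3) in replicates 2 and 3. In Teff2 it was 44.2% in replicate 1 (41.8 to 46.6), against 14.996% (13.2 to 16.9) and 13.2% (11.7 to 14.9). In Tex it was 33.6% in replicate 1 (31.1 to 36.1), against 14.9% (13.1 to 16.9) and 15.7% (13.9 to 17.6). Every interval of replicate 1 lies above every interval of the other 8 libraries; the intervals cover counting error only.

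**Figure D4:**
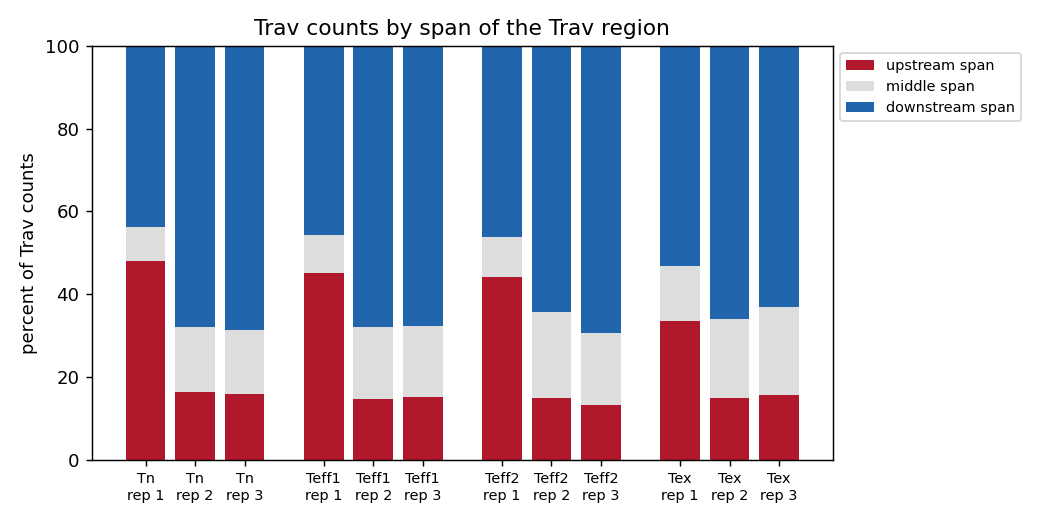
Percent of the Trav counts of each library that fell on the upstream, middle and downstream span of the Trav region, by state and replicate. Replicate 1 of each state has 33.6% to 48.0% on the upstream span, and replicates 2 and 3 have 13.2% to 16.3%.

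A test of the replicate number across the 4 states, in a model with state and number as terms, called 15 of 120 segments (edgeR, adjusted over all genes), beside 2.82% of all genes. All 15 were Trav segments, of 47 tested. This test was chosen after the libraries had been seen to differ, and its calls depended on which library was left out. Without replicate 1 of Teff1, of Teff2 or of Tex it called 0. Without any other Teff2 library or Tex replicate 2 it called 0, and without Teff1 replicate 2 or Tex replicate 3 it called 1. Those fits called 0.0667% to 0.797% of all genes. Without Tn replicate 2, Tn replicate 3 or Teff1 replicate 3 it called 11, 10 and 15, beside 2.81%, 2.58% and 3.77% of all genes. Without Tn replicate 1 it called 20 of 122 segments, 18 of them Trav. Over all kinds of segment together, that count stands near the share of all genes called in that fit, 16.2%. The Trav segments number 53 in all, so the share called among them was above 16.2%. DESeq2's likelihood ratio test called 25, of them 23 Trav, beside 13.1% of all genes. The direction followed the span. All 15 tested segments of the upstream span were higher in replicate 1 than in the mean of replicates 2 and 3, with a median log2 difference of 1.42 and a range of 0.19 to 2.28. All 7 of the middle span were lower, with a median of -0.96. In the downstream span the 17 tested segments from Trav6-3 to Trav6-7-dv9 were lower, and the last 8, from Trav7-6 to Trav21-dv12, were higher (0.10 to 0.60). Replicate 1 was the highest of the 3 libraries in all 4 states for 13 of the 15 upstream segments, beside 7.84% of all genes, and the lowest for 14 of the 25 downstream segments, beside 8.18%. The contrast of replicate 1 with the mean of replicates 2 and 3 called 15 segments higher (12 Trav and Traj12, Traj25 and Traj36), beside 7.13% of all genes, and 13 lower, all Trav, beside 4.79%. That contrast was picked after replicate 1 had been seen to stand apart, so its calls are a description.

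**Figure D5:**
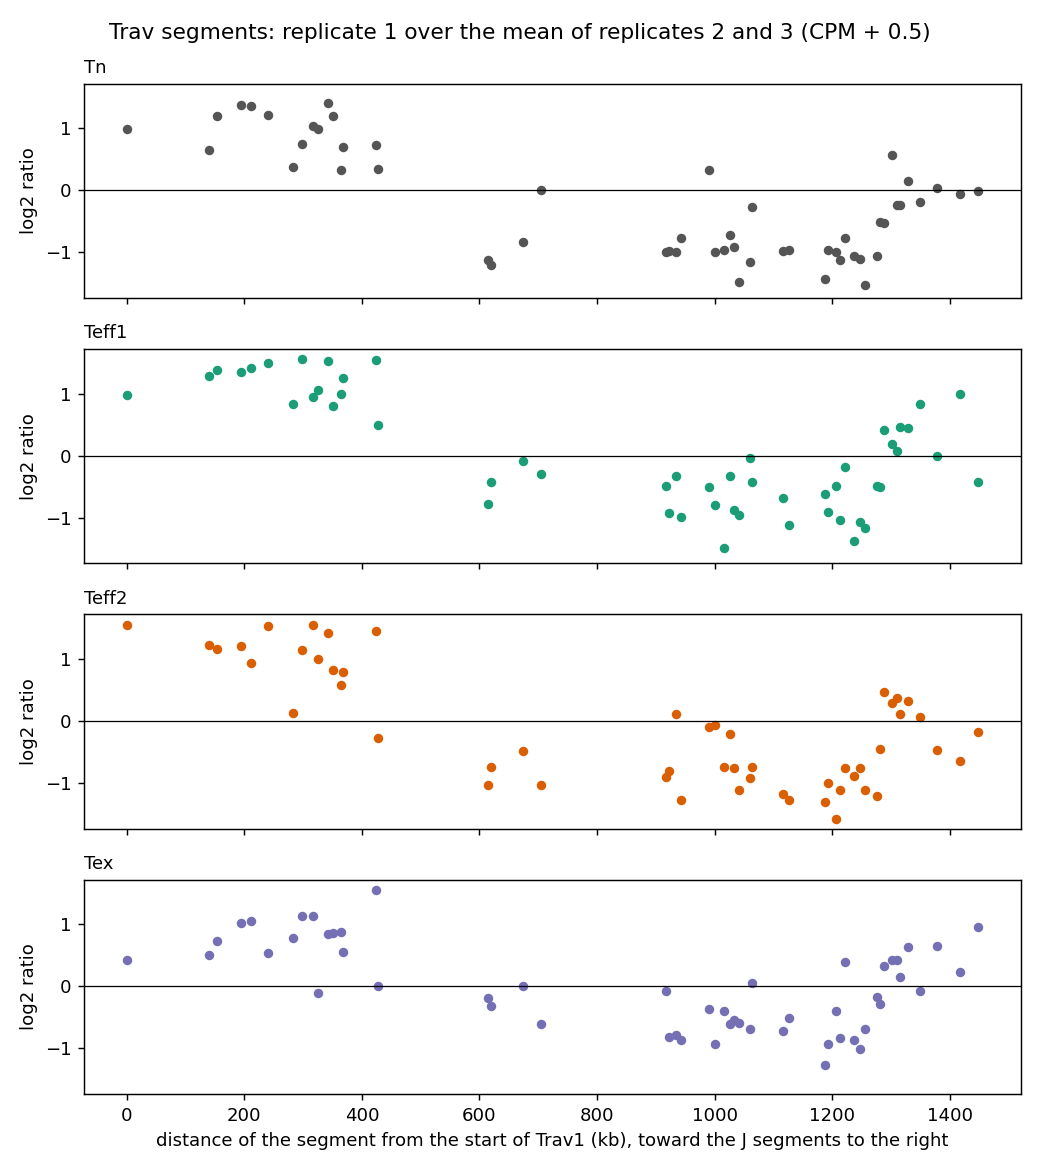
Log2 ratio of replicate 1 over the mean of replicates 2 and 3 (CPM + 0.5) for each of the 53 Trav segments, against its distance from the start of Trav1 in kb, with a panel for each state. Segments of the upstream span lie mostly above 0 and those of the middle span and most of the downstream span below 0 in all 4 panels.

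The Trav5 family shows the pattern with a segment at each end. Trav5-1, in the upstream span, was at 3.84 CPM in Tn replicate 1, against 1.16 and 1.18 CPM in replicates 2 and 3; at 3.00, against 0.9501 and 0.788 CPM in Teff1; at 2.55, against 0.838 and 0.806 CPM in Teff2; and at 1.87, against 0.486 and 0.832 CPM in Tex. Trav5-4, in the downstream span, was at 1.26 CPM in Tn replicate 1, against 3.06 and 3.27 CPM; at 1.52, against 2.47 and 2.18 CPM in Teff1; at 0.918, against 2.39 and 3.17 CPM in Teff2; and at 1.54, against 1.67 and 1.92 CPM in Tex. So replicate 1 was the highest of the 3 for Trav5-1 and the lowest for Trav5-4 in all 4 states. Trav5-1 was called for the replicate term (adjusted p = 0.0237 by edgeR, log2 difference of replicate 1 from the others 1.66), and Trav5-4 was not (adjusted p = 0.145, log2 difference -0.90).

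Trav13d-1, also upstream, had the widest ratio of the highest to the lowest share within a state among Trav segments with a mean share of at least 1%, 13.5 in Tex, where it was at 1.43 CPM in replicate 1, against 0.108 and 0.208 CPM in replicates 2 and 3. Its log2 difference over the 4 states was 2.28 (adjusted p for the replicate term 0.0294). Of the 6 Trav segments with the highest shares, Trav8-2 and Trav16 were not called for the replicate term, with log2 differences of 0.19 and 0.15. Trav16n, Trav3-3 and Trav12-2 were called, with log2 differences of -0.99, -1.20 and -1.37, and Trav13-1 just missed the threshold (-1.04, adjusted p = 0.0505). Trav3-3 was at 2.58 CPM in Tn replicate 1, against 5.51 and 6.33 CPM in replicates 2 and 3, and at 2.14 CPM in Tex replicate 1, against 4.53 and 4.11 CPM. Trav7-3, the next by the same measure (11.4, in Teff1), was at 0.143 CPM in replicate 1, against 1.81 and 0.788 CPM in replicates 2 and 3.

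Many of these segments are near copies, since part of the mouse Trav locus is repeated, and the letters d and n in a symbol mark copies. Which copy a read was assigned to is uncertain, because the counting of reads that match several copies is not given in the sources used here. Of 17 Trav families by number, 9 had segments in both the upstream and the downstream span, and in 9 of these 9 the share of the family's counts on the upstream span was highest in replicate 1 in all 4 states. With each family summed over its copies, the ranges of distance overlapped at their ends. The usage distance, the part of the counts that would have to move to make the shares of both libraries equal, was then 12.8% to 21.6% (median 18.5%) between a replicate 1 library and any other, 6.68% to 14.3% (median 11.6%) between replicate 1 libraries, and 3.33% to 13.04% (median 7.57%) between the others. By single segment those distances were 28.1% to 40.2% between replicate 1 and the others, 14.8% to 20.1% between replicate 1 libraries of different states, and 10.4% to 15.3% between libraries that are neither. Trav1 and Trav2, families of 1 segment each, were highest in replicate 1 in all 4 states: Trav1 was at 3.18 CPM in Tn replicate 1, against 1.36 and 1.34 CPM, and Trav2 was at 2.18 CPM, against 1.497 and 0.912 CPM in Tn replicates 2 and 3.

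The usage distances of the other kinds of segment showed no such gap. The distance for Trbv was 4.81% to 11.8% between replicate 1 and the others within a state, and 3.796% to 8.85% between replicates 2 and 3. For Traj those ranges were 10.2% to 25.9% and 10.6% to 26.6%, and for Trbj 7.82% to 13.9% and 8.21% to 13.7%. None of the 73 Traj, Trbv and Trbj segments tested was called for the replicate term, but replicate 1 was the highest of 3 in all 4 states for 9 of 43 Traj segments and the lowest for 6 of 19 Trbv segments, beside the 7.84% and 8.18% of all genes. The dendritic cell marker list summed to 19.0 to 22.4 CPM in replicate 1 of Teff2 and Tex, against 2.77 to 11.4 CPM in their other libraries. Zbtb46 alone made up 22.1 and 17.2 CPM of it in replicate 1 of Teff2 and Tex, and 2.64 to 10.9 CPM in the others. Flt3, Itgax and Siglech were each at most 1.48 CPM in any Teff2 or Tex library. The part of this difference in the Trav usage was not tested.

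The evenness of usage differed by a few segments between states at most. The effective number of segments, the number of equally used segments that would give the same Shannon entropy, was 40.2 ± 0.401 (Tn), 39.5 ± 1.48 (Teff1), 37.7 ± 0.877 (Teff2) and 38.6 ± 1.802 (Tex) for Trav, out of 53; the Tn and Teff2 libraries do not overlap. For Traj it was 36.8 ± 1.71, 36.0 ± 2.58, 36.7 ± 2.80 and 32.8 ± 5.03, out of 49, with the lowest value, 27.1, in Tex replicate 2. For Trbv it was 16.2 ± 0.0693, 16.2 ± 0.173, 16.3 ± 0.184 and 15.9 ± 0.251, out of 20. For Trbj it was 8.83 ± 0.395, 8.71 ± 0.415, 8.79 ± 0.687 and 8.79 ± 0.439, out of 12 (SD, n = 3 each, in the order Tn, Teff1, Teff2 and Tex). The highest share of any segment in a library was 10.5% for Trav (Trav8-2), 12.2% for Traj (Traj1), 12.6% for Trbv (Trbv1) and 25.4% for Trbj (Trbj1-5).

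The other genes of the receptor were read from a list of 20, of which 16 were in the matrix and 13 passed the filter. Of the 13, 9 fell in Teff1, 8 in Teff2 and 6 in Tex over the same Tn libraries, and 0 rose, beside the 24.5%, 23.3% and 25.6% of all genes that fell. Cd247, the zeta chain of the CD3 complex, was at 94.7 ± 21.0 CPM in Teff1 and 198 ± 32.3 CPM in Tn (log2 fold change -1.07, SE 0.18, adjusted p = 7.37e-04). Cd8b1, the beta chain of the CD8 coreceptor, was at 350 ± 43.0 CPM in Teff1 and 825 ± 275 CPM in Tn (log2 fold change -1.24, SE 0.22). Cd3e and Cd3g fell by 0.61 and 0.69 on the log2 scale in Teff1, and Cd3d did not pass (-0.34, adjusted p = 0.0997). Dntt, which adds nucleotides at the joints during recombination, was at 1.56 ± 0.246 CPM in Teff1 and 8.18 ± 2.71 CPM in Tn (log2 fold change -2.39, SE 0.73, adjusted p = 0.0174). Rag1, which cuts the segments, was at most 0.529 CPM in any library, and Rag2 had 0 counts in all 12. The gamma chain constant genes Tcrg-C1 and Tcrg-C2 fell with log2 fold changes of -3.69 and -2.89 in Teff1 over Tn. In Tex over Tn, Tcrg-C1 fell (-2.21, adjusted p = 0.00762 by edgeR) and Tcrg-C2 was not called (-0.49, adjusted p = 0.381). The gamma delta marker list, which holds both, was lower in all activated libraries as given above. Blk made up 33.9, 4.15 and 61.4 CPM of that list in Tn replicates 1, 2 and 3, and at most 0.659 CPM elsewhere.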

How the data were processed

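The deposited matrix holds whole-number counts per gene symbol for 12 RNA-seq libraries (3 per state), which the authors had not normalized, judging by the values. A second deposited matrix holds the authors' normalized values on a log2 scale; its transformation is not given in the sources used here, and it was used in the limma fit alone. Per the submitters' processing notes, the tools and build were mm10, HISAT2, HTSeq and DESeq2, without versions; counting settings and strand are not given. The 4 Hi-C samples were not analysed here.

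Segments and lists were chosen with earlier results of these data known. Counts were fitted with edgeR 4.0.16 (R 4.3.3; quasi-likelihood, TMM factors, filterByExpr, a term for state over all 12 libraries), and p-values were Benjamini-Hochberg adjusted over the 14332 genes tested, with 0.05 as the threshold. CPM use TMM-scaled library totals. Shares are of the counts of a kind of segment in a library. The fit was tested on simulated data, with genes changed in Teff1 over Tn. It recovered 29 of 107 genes with a log2 change of 1 and 76 of 91 with a change of 2, with 1 false call. In the simulation a change of 1 was thus mostly missed. It changed 200 genes, whereas 3505 genes fell and 3507 rose in the real Teff1 over Tn fit. The recovery in the simulation therefore need not hold for the real fit. A lack of calls still does not show a lack of change. Alternatives were DESeq2 1.42.0, limma 3.58.1 on the authors' log2 values, upper-quartile factors, no filter, a replicate block, leaving out libraries, and for sums and effective numbers the settings named below. Equal replicate numbers of Tex and Teff2 were treated as pairs because their deviations from the state means correlated (r of 0.85, 0.78 and 0.75); the other comparisons had correlations of at most 0.51, the lowest at 0.00 to 0.03, and were not paired. Segments named are the 6 with the highest mean share of each kind, the 4 largest falls per comparison, the 2 widest share ratios within a state per kind (mean share of at least 1%, no count of 0 in that state), those of invariant chains and those next to the threshold; the others named were chosen after their values were seen. Coordinates are from RefSeq for GRCm38.p6, 1-based. Close copies of a segment may share reads.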

Additional observations from a re-analysis of the deposited data

How the results depend on the processing

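Segments called in Teff1, Teff2 and Tex over Tn numbered 44, 33 and 54. With no filter on low counts the count for Teff1 was 25, and with Tn replicate 2 as the only Tn library the counts were 9, 9 and 16. Leaving out a library in turn gave 23 to 49, 13 to 38 and 46 to 61. The replicate block gave 57, 46 and 64 with the numbers as a block, within 1.5 times the main counts; these numbers are not known to pair Tn with the activated libraries. Upper-quartile factors moved the median of all genes in Teff1 over Tn to -0.20 on the log2 scale from -0.06 and gave 56, 38 and 60 calls. The share of all genes called in these alternative settings is not given here. A change in power and a change in the differences therefore cannot be told apart. Teff2 over Teff1 and Tex over Teff2 had 0 calls in every setting, the block included. The replicate term called 15, with 25 by DESeq2 and 0 to 20 when a library was left out. The 20 stood beside 16.2% of all genes, near the share over all kinds of segment together, but 18 of the 20 were Trav. Relative to Trac, the log2 ratio of the summed level was 0.39 for Trav and 0.35 for Traj in Teff2 over Teff1 (0.10 and 0.05 without), and -0.14 for Trav in Tex over Teff2 (-0.23 without). Relative to Trbc1 plus Trbc2 it was -0.26 for Trbv and -0.89 for Trbj in Teff1 over Tn. The difference in the effective number of Trav segments, Teff2 minus Teff1, was -3.72 by the inverse Simpson index and -1.83 by entropy. Leaving out a library gave these log2 ratios of summed levels, Teff1 over Tn, Teff2 over Teff1 and Tex over Teff2 in turn: Trav -0.33 to -0.16, 0.01 to 0.19 and -0.28 to -0.20; Traj -1.57 to -1.12, -0.06 to 0.21 and -1.25 to -0.62; Trbv -0.80 to -0.55, 0.08 to 0.23 and -0.15 to -0.00; Trbj -1.42 to -1.18, 0.08 to 0.57 and -0.48 to 0.05. Differences in effective numbers were, in the same order, Trav -1.50 to -0.06, -2.46 to -1.02 and -0.07 to 1.70; Traj -1.83 to 0.63, -0.74 to 2.27 and -5.81 to -1.06; Trbv -0.04 to 0.13, -0.04 to 0.16 and -0.54 to -0.29; Trbj -0.35 to 0.05, -0.32 to 0.31 and -0.25 to 0.40. Where a setting moved a value, the cause was not tested. Many segments have few counts in a library, which limits the Traj and Trav results.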
